A study of Mus musculus with 6 samples.

Results

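Melanocytes are pigment cells of the neural crest, and the aortic valve is one of the places in the heart where they are found in mice. The 10 genes described here, Mitf, Kit, Ednrb, Edn3, Tyr, Tyrp1, Dct, Pmel, Mlana and Slc45a2, were taken by name from a table of 46983 genes measured by RNA-seq in the mouse aortic valve, and all 10 were found in it. Positions are those of the mm10 assembly, as in the Ensembl annotation used for counting. The table holds 6 libraries from wild type C57BL/6J mice, 3 from postnatal day 2 (PND2) and 3 from 4 months of age, with no treatment and no genetic change in either group. Each library was made from total RNA of the pooled valves of 5 to 6 animals, so a library averages over several mice. The comparison asks how the RNA of these genes in the growing postnatal valve differs from that in the adult valve.

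In a melanocyte, the transcription factor MITF switches on most of the genes that make pigment, among them the enzymes TYR, TYRP1 and DCT, which convert tyrosine into melanin inside an organelle called the melanosome. PMEL forms the fibrils on which melanin is laid down, MLANA is a melanosome membrane protein, and SLC45A2 is a melanosome transporter. The receptors KIT and EDNRB, with their ligands KITL and EDN3, are needed for melanocyte precursors to survive, multiply and migrate. KIT, MITF and EDNRB are not restricted to this lineage, since mast cells also use KIT and MITF, and EDNRB is found on endothelial cells and other neural crest derivatives.

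MITF recognises a short DNA element known as the M-box, and the promoters of the 3 enzyme genes carry it. RefSeq promoters (assembly GRCm38.p6, which has the coordinates of mm10, from 250 bases before to 50 bases after each annotated start) were at hand for 7 of the 10 genes, with 10 promoters in all. Those of Pmel, Mlana and Slc45a2 were not analysed here. The letters TCATGTGCT, searched on both strands, occurred in 134 of 32851 mouse promoters of this length (0.408%) and among the 7 genes in Tyr, Tyrp1 and Dct. The match began 22 bases before the start of Tyr (chr7:87493516-87493544, minus strand), 47 bases before that of Tyrp1 (chr4:80834156-80834184, plus strand) and 151 bases before that of Dct (chr14:118052379-118052407, minus strand). For Tyrp1 this place is also inside the exon at 80834123 to 80834401 with which a longer annotated transcript begins. For Tyr the RefSeq start lies upstream of the counted gene, which begins at 87493411 on the minus strand, so the match is further from that start. The shorter core CATGTG, which is contained in the M-box, is common (14.2% of promoters) and was found in the same 3 genes only. A cAMP response element, TGACGTCA, which reads the same on both strands and is present in 1.79% of promoters, was found 153 bases before the Mitf start that gives the melanocyte form (chr6:97991620-97991647, plus strand). A match gives the presence of these letters and was not tested as a bound site. The stretches are shown because the element is the known target of the factor measured beside the enzymes, and they are written 5′ to 3′ on the strand of the gene, with the matched letters in capitals.
Tyr: aaaaagttagTCATGTGCTttgcagaaga
Tyrp1: ggggagggagTCATGTGCTgcctagtagt
Dct: gcacttagggTCATGTGCTaacaaagagg
Mitf: aaaaaaagcaTGACGTCAagccagcagg

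Values are RPKM, the number of reads on a gene per kilobase of its exons, scaled to the total reads of the library, so that levels of different genes can be set side by side. Library totals ran from 23810507 to 38994657, and a single read on a kilobase of exons was worth 0.0256 to 0.0420 RPKM. Ages were compared with limma on log2(RPKM + 0.1) over the 25903 genes with at least 0.1 RPKM in 3 or more libraries, which included all 10 genes. A gene was called when its p, 2-sided and adjusted over all 25903 genes by the Benjamini-Hochberg method, was under 0.05, and a log2 fold change is always 4 months minus PND2. The added 0.1 makes the fold changes of genes with low RPKM smaller than they are. Many genes differ between these ages: 35.8% of all tested genes were called, 21.1% lower and 14.7% higher at 4 months, and the median log2 fold change was -0.14. When libraries were scaled to a common median, this median became -0.02 and 52.7% of the calls were higher, against 41.1% without that scaling. In bulk tissue, fewer cells of a type and less RNA of a gene per cell cannot be told apart.

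Some but not all of the 10 genes were lower in the adult valve. Of them, 5 were called and all 5 were lower at 4 months, namely Pmel, Tyrp1, Slc45a2, Kit and Mitf. Over all tested genes 35.8% were called, 21.1% of them all lower and 14.7% higher. Kit and Mitf are not restricted to melanocytes, and the first exon of the melanocyte form of Mitf held few reads at both ages. The median log2 fold change of the 10 genes was -0.71. A per-gene test with unequal variances, which does not share the spread over genes, called 0 of the 10 genes at the same adjusted threshold, with 4 at an unadjusted p under 0.05 against 6 with limma. In the same 5 genes each library of 4 months was below each library of PND2, a separation seen for 29.9% of all tested genes. Tyr, Dct, Mlana and Ednrb overlapped between the ages, and Edn3 was the single gene with all libraries of 4 months above those of PND2, which 20.0% of all tested genes showed.

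**Figure D1:**
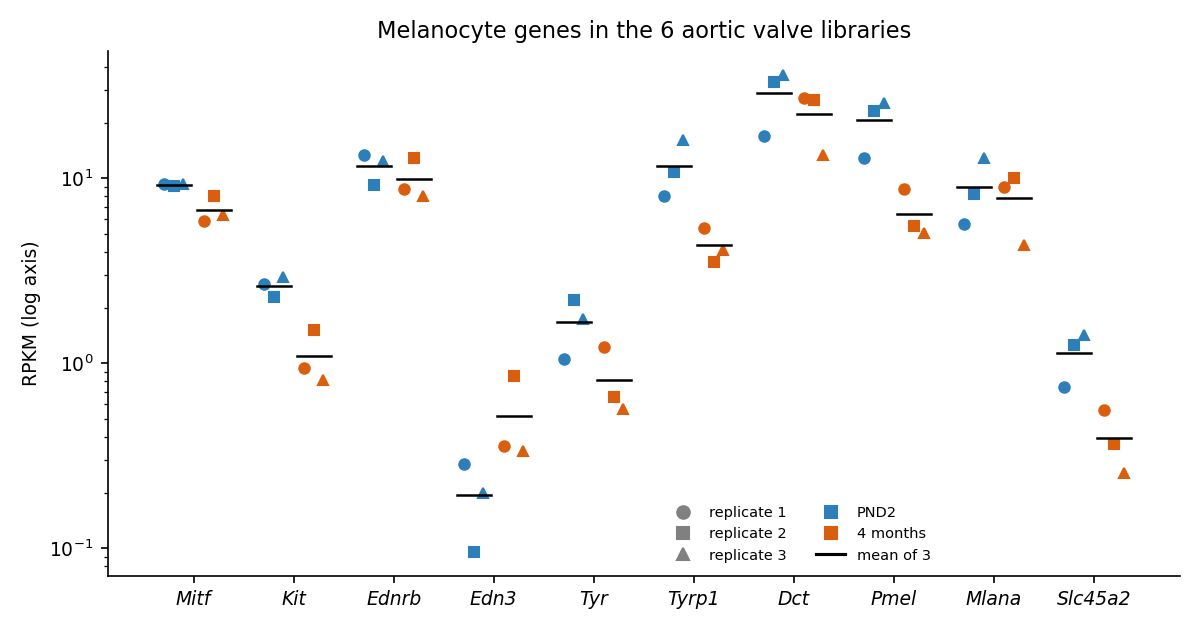
RPKM of the 10 melanocyte genes on a log axis, with a point for each library (blue, PND2; orange, 4 months; circle, square and triangle for replicates 1, 2 and 3) and a line at the mean of 3 libraries. Pmel, Tyrp1, Slc45a2, Kit and Mitf have every orange point below every blue point, and PND2 replicate 1 is the lowest blue point of all 6 pigment genes.

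Mitf (ENSMUSG00000035158, chr6:97807052-98021349) encodes the transcription factor that directs the lineage. Its levels at PND2 were 9.32, 9.06 and 9.34 RPKM in replicates 1, 2 and 3, and at 4 months they were 5.86, 8.01 and 6.37 RPKM. The PND2 libraries were nearly alike, with a coefficient of variation of 1.71%, and all 3 adult libraries were lower, with replicate 2 the closest to the PND2 values. Mean RPKM was 9.24 ± 0.158 (SD, n = 3) at PND2 and 6.75 ± 1.12 at 4 months, which is -0.46 ± 0.15 (SE) on the log2 scale with a limma adjusted p of 0.0482. This call was close to the threshold and was lost in 12 of 16 alternative analyses, in which the adjusted p ran from 0.02 to 0.172. Among the fits that left out a library, it was kept without replicate 2 of 4 months (limma adjusted p = 0.0255) and was lost without replicates 1, 2 and 3 of PND2 (0.0876, 0.102 and 0.125) and without replicates 1 and 3 of 4 months (0.131 and 0.131).

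Mitf is read from several start sites that each add their own first exon to a set of shared exons, and the form of melanocytes starts nearest to the shared exons. The exon values, which are given as a description without a test, cover 4 such start positions on chromosome 6 of mm10. The first exon of the melanocyte form (97991792 to 97991953) held 2, 5 and 3 reads at PND2 and 11, 1 and 3 reads at 4 months. Relative to the RPKM of the first shared exon (97993127 to 97993354), it stood at 4.02, 8.69 and 6.30% at PND2 and at 36.9, 3.70 and 8.28% at 4 months. With so few reads the melanocyte form was near the limit of detection in most libraries, and replicate 1 of 4 months alone stood out.

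Most Mitf reads near the start came from forms that begin further upstream. The exon that these forms share (97941053 to 97941302) held 70, 68 and 51 reads at PND2 and 28, 33 and 26 reads at 4 months. Its RPKM fell without overlap from 7.18, 8.91 and 6.97 to 3.00, 5.54 and 3.59. A longer version of this exon (97940918 to 97941302), with the same reads, is also the first exon of an annotated transcript. The values therefore do not separate that start from those further upstream. The most upstream first exon (97807052 to 97807287) behaved differently, with 2, 19 and 13 reads at PND2 and 36, 10 and 27 reads at 4 months. As a percentage of the first shared exon it was 2.76, 22.7 and 18.7% at PND2 and 82.8, 25.4 and 51.1% at 4 months, so that the ages did not overlap on this scale, although they did in RPKM. A further first exon (97929799 to 97929933) had at most 6 reads in any library.

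Of the 8 shared exons of Mitf, 5 were lower at 4 months without overlap. The ratio of mean RPKM at 4 months to that at PND2 was between 0.303 and 0.665 in the 7 shared exons before the last, and 0.796 in the last exon of 3576 bases, where the ages overlapped. The last exon held 915 to 1738 reads per library, out of 1143 to 2252 for the whole gene, so the value of the gene rests mainly on it.

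**Figure D2:**
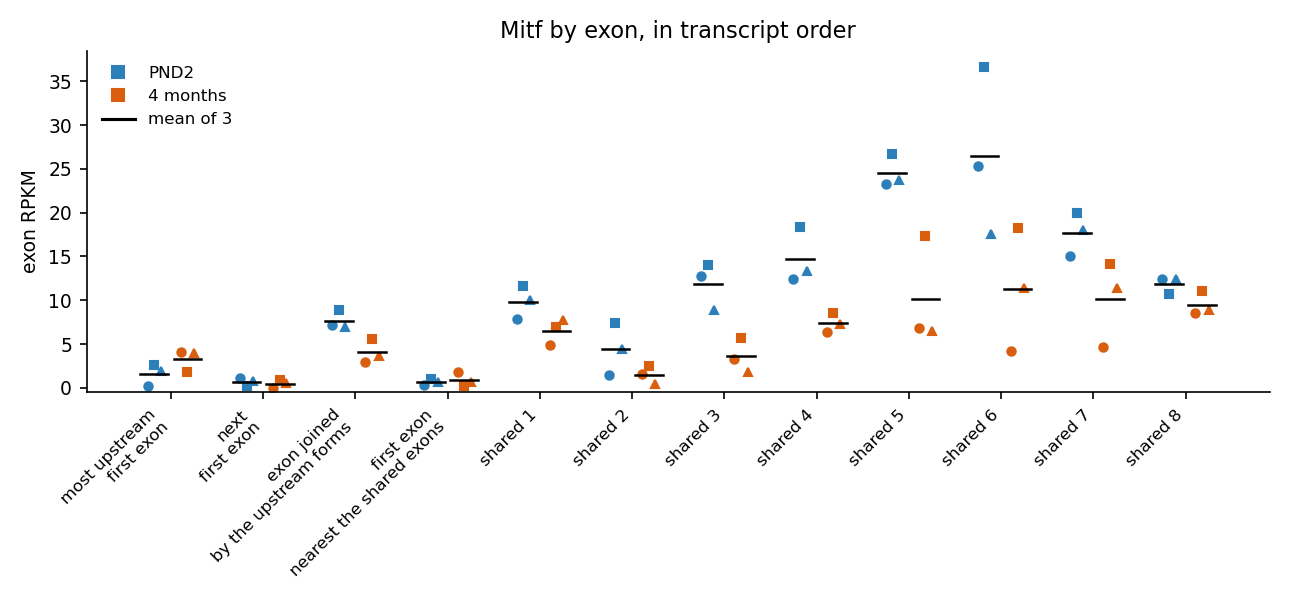
Exon RPKM of Mitf in transcript order, from the most upstream first exon to the last shared exon, with a point for each library (blue, PND2; orange, 4 months) and a line at the mean of 3. The first exon nearest the shared exons is close to 0 at both ages, and means at 4 months are below those at PND2 in the exon joined by the upstream forms and in all 8 shared exons.

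Kit (ENSMUSG00000005672, chr5:75574916-75656722) encodes the receptor for KIT ligand. It measured 2.67, 2.28 and 2.94 RPKM at PND2 and 0.943, 1.52 and 0.814 RPKM at 4 months, from 621 to 928 reads and 210 to 322 reads per library. All adult libraries were below all PND2 libraries. Mean RPKM fell from 2.63 ± 0.329 to 1.09 ± 0.374 (SD, n = 3), or -1.23 ± 0.28 (SE) on the log2 scale with limma adjusted p = 0.0134. The adjusted p was 0.0511 without replicate 3 of PND2. Mast cells are another known source of Kit RNA, and most but not all of their genes moved the same way. Of 10 mast cell genes including Kit, 7 were lower and none higher at 4 months (median log2 fold change -1.25), and their summed RPKM was 137 to 187 at PND2 against 63.3 to 79.4 at 4 months. Among the most abundant of them, the tryptase gene Tpsb2 fell by 2.00 and the chymase gene Cma1 by 1.49 on the log2 scale. Mcpt4, also abundant, had 0.22 (limma adjusted p = 0.717). The remaining genes not called, Fcer1a and Ms4a2, had 0.18 and 0.55. None of the mast cell genes was at 0 in all libraries. The part of mast cells in the Kit difference was not tested.

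The ligand of KIT, Kitl, was not called, with 16.7, 12.05 and 12.5 RPKM at PND2 and 13.0, 19.6 and 15.6 RPKM at 4 months (log2 fold change 0.22 ± 0.19 SE, limma adjusted p = 0.415). The levels of the ages overlapped.

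Ednrb (ENSMUSG00000022122, chr14:103814625-103844173) encodes the endothelin receptor of melanocyte precursors. It had 13.4, 9.26 and 12.4 RPKM at PND2 and 8.73, 13.0 and 8.04 RPKM at 4 months, with replicate 2 the lowest of one age and the highest of the other. The log2 fold change was -0.25 with a 95% interval of -0.77 to 0.27 (limma adjusted p = 0.42), so a fall of up to 0.77 was within its error. It was -0.14 without replicate 1 and -0.41 without replicate 2 of PND2, -0.46 without replicate 2 and -0.12 without replicate 3 of 4 months, and -0.13 when libraries were scaled to a common median, with no call in any of these fits. The endothelial genes, which mark another cell type with this receptor, were called lower at 4 months in 10 of 10 cases, and their summed RPKM was 562 to 775 at PND2 and 324 to 340 at 4 months. The most abundant were Pecam1, Egfl7 and Cdh5, with log2 fold changes of -0.49, -1.22 and -1.46. Their part in the Ednrb values was not tested.

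Edn3 (ENSMUSG00000027524, chr2:174760619-174784042), the ligand of EDNRB, was the least abundant of the 10 genes at PND2. Its RPKM was 0.287, 0.0956 and 0.199 at PND2 and 0.358, 0.858 and 0.336 at 4 months, from 46, 12 and 24 reads and 55, 84 and 40 reads. The adult libraries were all higher, and replicate 2 of 4 months was the highest. The log2 fold change of 1.03 ± 0.45 (SE) was not called (limma adjusted p = 0.12), and it was 0.66 without replicate 2 of 4 months (adjusted p = 0.318) and 0.33 with 1 in place of 0.1 added to the RPKM. Reads were present in every library in 4 of its 13 annotated exon intervals, which overlap one another.

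Other genes of these signalling routes were called in both directions. Of 9 measured genes for KIT, endothelin, melanocortin and HGF signals, 3 were lower and 1 higher at 4 months (median log2 fold change -0.34). Among all tested genes 21.1% were called lower and 14.7% higher, so these counts do not set the routes apart. Edn1, the endothelin made by endothelial cells, fell from 30.1, 30.5 and 42.5 RPKM to 9.18, 7.83 and 9.30 RPKM (log2 fold change -1.94, limma adjusted p = 2.3e-04). Ednra, the other endothelin receptor, fell by 1.08 on the log2 scale, and Ece1, which cleaves the endothelin precursors, fell by 0.56 from the highest level of the group (148 to 160 RPKM at PND2). Hgf, a growth factor that acts on melanocytes among other cells, rose from 0.753, 0.912 and 1.21 RPKM to 2.33, 2.45 and 2.12 RPKM (log2 fold change 1.199, limma adjusted p = 0.00925). Its receptor gene Met was not called.

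Of the 3 enzymes of melanin synthesis, Tyrp1 was called and Tyr and Dct were not. Tyr (ENSMUSG00000004651, chr7:87427405-87493411) encodes tyrosinase, the rate-limiting enzyme, and was the lowest of the 3 with 1.05, 2.20 and 1.74 RPKM at PND2 and 1.22, 0.660 and 0.564 RPKM at 4 months. The ages overlapped, because replicate 1 was the lowest library at PND2 and the highest at 4 months. The log2 fold change was -0.96 ± 0.38 (SE), limma adjusted p = 0.0923, and without replicate 1 of 4 months it was -1.25 with an adjusted p of 0.0495.

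Tyrp1 (ENSMUSG00000005994, chr4:80834123-80851719), whose product acts after tyrosinase, was lower in the adult valve. It had 7.998, 10.8 and 16.1 RPKM at PND2 and 5.42, 3.53 and 4.08 RPKM at 4 months. The lowest PND2 library was above the highest adult library. Mean RPKM was 11.6 ± 4.13 and 4.34 ± 0.968 (SD, n = 3), or -1.36 ± 0.28 (SE) on the log2 scale with limma adjusted p = 0.0086. The call was kept in each of the 6 fits without a library, with adjusted p of up to 0.0342.

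Dct (ENSMUSG00000022129, chr14:118012792-118052246), which encodes dopachrome tautomerase, was the most abundant of the 10 genes at both ages. Its levels were 17.01, 33.4 and 36.4 RPKM at PND2 and 27.2, 26.5 and 13.3 RPKM at 4 months. Replicate 1 of PND2 and replicate 3 of 4 months were low within their age, and the ages overlapped. The log2 fold change was -0.37 with a 95% interval of -1.23 to 0.49 (limma adjusted p = 0.478), so a fall of up to 1.23 was within its error. Without replicate 3 of 4 months it was -0.03 and without replicate 1 of PND2 it was -0.71.

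Pmel (ENSMUSG00000025359, chr10:128706258-128720238), the fibril protein of the melanosome, showed the largest fall of the 10 genes. It measured 12.9, 23.2 and 25.7 RPKM at PND2 and 8.71, 5.52 and 5.04 RPKM at 4 months, from 1073 to 1603 reads and from 280 to 693 reads per library. Replicate 1 was again the lowest at PND2 and the highest at 4 months, yet the ages did not overlap. Mean RPKM fell 3.21-fold, from 20.6 ± 6.79 to 6.43 ± 1.99 (SD, n = 3), which gave -1.65 ± 0.31 (SE) on the log2(RPKM + 0.1) scale with limma adjusted p = 0.00594. The call was kept in each of the 6 fits without a library, with adjusted p of up to 0.0265. Pmel shares 4.60% of its exonic bases with Dgka on the opposite strand, and whether strand was used in counting is not stated. None of the other 9 genes shared exonic bases with another gene.

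Mlana (ENSMUSG00000024806, chr19:29697921-29708448), the melanosome membrane protein, was not called. It had 5.68, 8.26 and 12.9 RPKM at PND2 and 9.02, 10.1 and 4.38 RPKM at 4 months, and the ages overlapped. The log2 fold change was -0.20 with a 95% interval of -1.11 to 0.72 (limma adjusted p = 0.731). It turned positive without replicate 3 of PND2 (0.10) and without replicate 3 of 4 months (0.17).

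Slc45a2 (ENSMUSG00000022243, chr15:11000721-11029233), the transporter, was low at both ages. It measured 0.748, 1.26 and 1.42 RPKM at PND2 and 0.556, 0.366 and 0.255 RPKM at 4 months, from 87, 115 and 124 reads and 62, 26 and 22 reads. All adult libraries were below all PND2 libraries. The log2 fold change was -1.34 ± 0.37 (SE), limma adjusted p = 0.0276. The adjusted p rose to 0.0819 without replicate 2 of PND2, 0.0948 without replicate 3 of PND2, 0.0694 without replicate 2 of 4 months and 0.0851 without replicate 3 of 4 months.

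**Figure D3:**
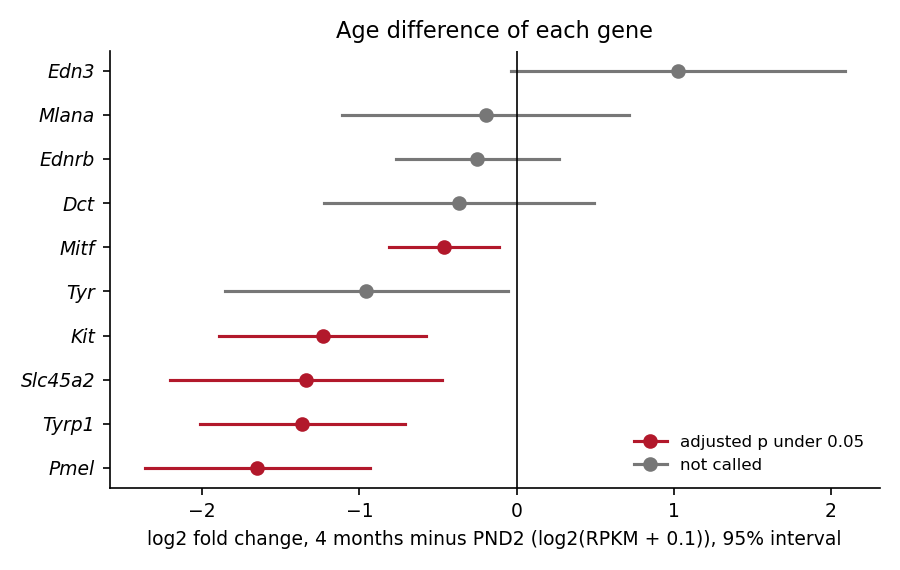
Log2 fold change of each of the 10 genes (4 months minus PND2, on log2(RPKM + 0.1)) with its 95% interval from limma, in red where the adjusted p was under 0.05 and in grey otherwise. Pmel is lowest at -1.65 and Edn3 highest at 1.03.

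Ordered by mean RPKM at PND2, the 10 genes ran from Dct (28.9) and Pmel (20.6) through Ednrb (11.7), Tyrp1 (11.6), Mitf (9.24) and Mlana (8.94) to Kit (2.63), Tyr (1.66), Slc45a2 (1.14) and Edn3 (0.194). At 4 months the order was Dct (22.4), Ednrb (9.92), Mlana (7.84), Mitf (6.75), Pmel (6.43), Tyrp1 (4.34), Kit (1.09), Tyr (0.816), Edn3 (0.517) and Slc45a2 (0.392). Neighbours such as Ednrb and Tyrp1 at PND2, or Mlana, Mitf and Pmel at 4 months, did not differ beyond their spread over libraries. Pmel moved from rank 2 to rank 5.

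The 6 genes of the pigment machinery, Tyr, Tyrp1, Dct, Pmel, Mlana and Slc45a2, were all lowest in replicate 1 among the PND2 libraries. Their coefficients of variation at PND2 were 30.8 to 40.9%, against 1.71% for Mitf, 12.5% for Kit and 18.5% for Ednrb. Their summed RPKM was 45.4, 79.1 and 94.3 at PND2 and 52.2, 46.7 and 27.6 at 4 months. The sums overlapped, since replicate 1 of PND2 was below replicates 1 and 2 of 4 months.

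The make-up of this sum separated the ages where the sum itself did not. This was examined after the values were seen, and it does not depend on the library totals, because the genes are compared within a library. Pmel made up 28.4, 29.4 and 27.3% of the summed RPKM at PND2 and 16.7, 11.8 and 18.3% at 4 months. Dct made up 37.5, 42.2 and 38.6% and then 52.2, 56.8 and 48.2%. The share of Mlana was 12.5, 10.4 and 13.7% and then 17.3, 21.6 and 15.9%. All adult libraries thus had a smaller share of Pmel and larger shares of Dct and Mlana than all PND2 libraries. This includes PND2 replicate 1 with its low sum. The share of Slc45a2 was also smaller in each adult library, and those of Tyr and Tyrp1 overlapped. A larger share is not a rise in RPKM: the means at PND2 and 4 months were 28.9 and 22.4 for Dct and 8.94 and 7.84 for Mlana.

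**Figure D4:**
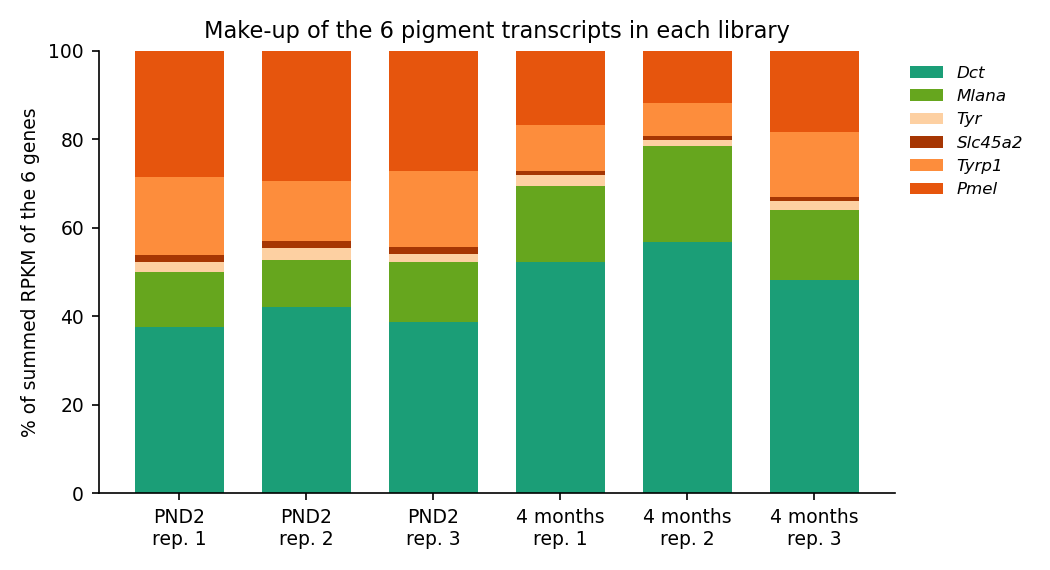
Share of each of the 6 pigment genes in their summed RPKM, as a stacked bar per library from 0 to 100%. The Pmel segment takes 27.3 to 29.4% at PND2 and 11.8 to 18.3% at 4 months, and the Dct and Mlana segments are larger in each library of 4 months than in each library of PND2.

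In the ratios, Dct to Pmel was 1.32, 1.44 and 1.42 at PND2 and 3.13, 4.81 and 2.64 at 4 months, a mean log2 difference of 1.30 that stayed between 1.05 and 1.48 when a library was left out. Mlana to Slc45a2 differed by 1.37 and Pmel to Mlana by -1.47 on the same scale. Of the 15 pairs, 9 did not overlap between the ages. Each of these 9 had a 2-sided p of 0.1 in an exact permutation test, which is the smallest that 3 libraries against 3 can give (0.167 after Benjamini-Hochberg adjustment over the 15 pairs), so none passed a threshold of 0.05. The pairs that overlapped were Dct with Mlana, Tyr with Tyrp1 and with Mlana, Tyrp1 with Pmel and with Slc45a2, and Pmel with Slc45a2. Pmel to Slc45a2 was 17.3, 18.4 and 18.1 at PND2 and 15.7, 15.1 and 19.8 at 4 months, and Dct to Mlana was 3.00, 4.04 and 2.83 and then 3.02, 2.62 and 3.04. A ratio shows that genes changed unequally and not which of them changed.

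The exon values also show how much of each gene had reads. Every annotated exon interval had reads in each library for Dct (8 of 8), Tyrp1 (14 of 14) and Pmel (11 of 11). The numbers were 4 of 5 for Tyr and Mlana, 9 of 10 for Ednrb, 21 of 24 for Mitf, 25 of 33 for Kit and 4 of 7 for Slc45a2.

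Further genes of the melanosome did not move as one group. Of 18 such genes, 16 passed the filter on low values, 2 were called higher, 3 lower and 11 were not called, with a median log2 fold change of -0.36. The shares called over all tested genes were 14.7% higher and 21.1% lower. Slc24a5, a melanosome ion exchanger, fell from 15.3, 12.1 and 14.6 RPKM to 9.51, 9.95 and 9.46 RPKM (log2 fold change -0.53, limma adjusted p = 0.0161), but 39.5% of its exonic bases are shared with Myef2 on the opposite strand. Atp7a, which supplies copper to tyrosinase, fell by 0.77, and Syngr1, a vesicle membrane protein, fell by 0.85 on the log2 scale. Rab27a, which carries melanosomes along actin with MLPH and MYO5A, rose by 0.64, and Gpnmb, a relative of Pmel that macrophages also express, rose from 3.22, 4.79 and 5.72 RPKM to 9.78, 8.03 and 11.02 RPKM (log2 fold change 1.08, limma adjusted p = 0.0113). The 8 macrophage genes were higher in 6 cases, and their summed RPKM was 236 to 293 at PND2 and 480 to 627 at 4 months. The most abundant of them, the complement genes C1qa, C1qb and C1qc, had log2 fold changes of 1.28, 1.05 and 1.00. Their part in the Gpnmb difference was not tested.

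Several classical pigment genes had low RPKM. Oca2 and Gpr143 did not pass the filter, with 0.123, 0.0745 and 0.285 RPKM against 0, 0.0106 and 0.0262 RPKM for Oca2. Mc1r, the melanocortin receptor, was at 0.0423, 0.513 and 0.150 RPKM and then at 0.103, 0.0577 and 0.171 RPKM. Trpm1 was at 0.284, 0.360 and 0.540 RPKM and then at 0.194, 0.197 and 0.173 RPKM, lower in each adult library but not called (limma adjusted p = 0.13).

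The transcription factors that act with or beside MITF also went in both directions. Of 15 genes, 14 were tested, 2 were higher and 3 lower at 4 months, and the median log2 fold change was 0.13. For all tested genes the shares were 14.7% higher and 21.1% lower. Snai2, a neural crest factor, fell from 27.5, 33.4 and 27.1 RPKM to 9.77, 12.8 and 11.9 RPKM (log2 fold change -1.35, limma adjusted p = 5.7e-04). Lef1 of the Wnt pathway fell by 1.46 and the MITF relative Tfeb by 0.44 on the log2 scale. Irf4, which cooperates with MITF at the tyrosinase gene and is also made by immune cells, rose from 0.267, 0.243 and 0.232 RPKM to 1.49, 2.37 and 0.953 RPKM (log2 fold change 2.21, limma adjusted p = 0.00371), and Zeb2 rose by 0.68.

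Sox10, which is required for melanocytes and for Schwann cells, was at 1.87, 1.80 and 2.56 RPKM at PND2 and at 4.55, 3.59 and 2.62 RPKM at 4 months. Its adult values were all higher, opposite to Mitf, but it was not called (log2 fold change 0.74 ± 0.26 SE, limma adjusted p = 0.0627). Schwann cell and nerve genes were higher in 5 and lower in none of 12 cases, with summed RPKM of 26.7 to 48.1 at PND2 and 70.9 to 82.0 at 4 months. The other 7 were not called, among them Erbb3, which was lower in each adult library (log2 fold change -0.54, limma adjusted p = 0.0988). S100b and Mal rose by 2.00 and 2.32 on the log2 scale. Mean RPKM of S100b was 7.25 at PND2 and 28.8 at 4 months, so this gene carries much of the rise in the sum. The part of Schwann cells in the Sox10 values was not tested. Pax3, another neural crest factor upstream of Mitf, stayed at or below 0.251 RPKM in every library.

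**Figure D5:**
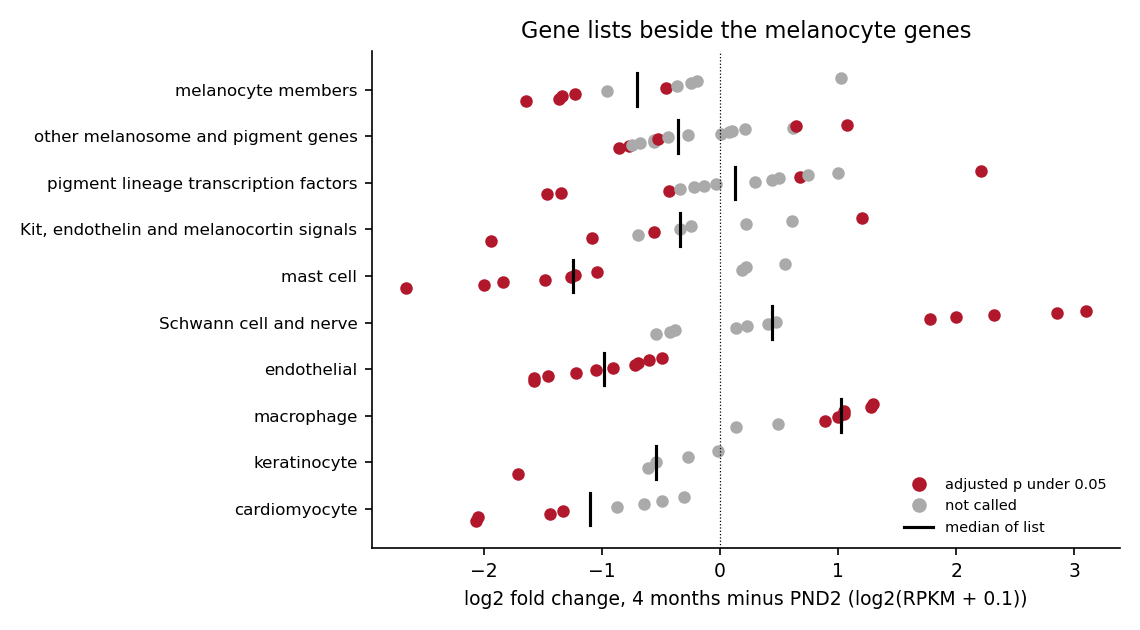
Log2 fold change (4 months minus PND2) of each tested gene, by list, with the 10 melanocyte genes at the top, red for an adjusted p under 0.05, grey for not called and a bar at the median of each list. The median is -0.71 for the melanocyte genes, -1.25 for mast cell genes and 0.44 for Schwann cell and nerve genes.

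Markers of the other tissues in the preparation were checked in the same libraries. The keratinocyte genes Krt5, Krt15 and Dsg3 were at 0 in some libraries and at most 0.145 RPKM in the others. Of 5 keratinocyte genes tested, Krt14 was lower (log2 fold change -1.71) and the others were not called. Krt14 was detected at both ages, with 11.2, 8.74 and 4.57 RPKM at PND2 and 3.61, 1.55 and 2.08 RPKM at 4 months. Krt10 had 1.98, 3.05 and 3.08 RPKM and then 1.87, 2.17 and 1.42 RPKM (log2 fold change -0.54). Krt1 and Trp63 were at most 0.415 and 0.318 RPKM in any library. Dsp, which heart muscle also makes, had a log2 fold change of -0.27. Heart muscle RNA was abundant: the summed RPKM of 8 cardiomyocyte genes, led by Myh6, Myl2 and Myh7, was 10905 to 13211 at PND2 and 4320 to 7566 at 4 months, and 4 of the 8 were lower. Of 10 valve interstitial and connective tissue genes, 6 were lower and 1 higher, with log2 fold changes of 0.54 for Vim (not called), 1.42 for Bgn and -0.77 for Col3a1. The 8 adipocyte genes, among them Cfd, Fabp4 and Adipoq, were higher in 7 cases, and their sum was 64.5 to 148 at PND2 and 378 to 1554 at 4 months, with Cidec and Lep at 0 in all PND2 libraries. RPKM is a share of each library, and the part of these differences in the melanocyte values was not tested.

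The genes whose profile over the 6 libraries was most like the mean of the 6 pigment genes were Ppp2r5c, Cndp2, 2310067B10Rik, Gm17110 and Smarcal1, with Pearson correlations of 0.992 to 0.996 on log2(RPKM + 0.1) among 19995 genes with a mean of at least 1 RPKM. The 6 points share the age groups and the library totals. On the same measure Kit stood at 0.77, Mitf at 0.63 and Ednrb at 0.27, which were ranks 4825, 7475 and 10931 of the 19995 genes. With deviations from the age means in place of the values, these correlations were 0.17, -0.17 and -0.13. The leading genes changed with the libraries used, and at most 2 of these 5 stayed among the leading 5 when a library was left out.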

How the data were processed

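Total RNA of pooled aortic valves was sequenced in 6 libraries, labelled as biological replicates 1 to 3 of PND2 and of 4 months. After quality filtering and trimming, the authors mapped the reads to mm10 (TopHat 2.1.0), used easyRNASeq to count reads over Ensembl features and deposited RPKM values per gene and per exon. The read minimum and floor of the study's methods are not applied in these values, since 32408 gene values stand for 1 to 10 reads. Whole reads were recovered from RPKM, exonic length and library total for 100% of gene values above 0 (tolerance 0.001). The library totals were inferred by taking the smallest product of exon RPKM and length above 0 as 1 read. Reads summed over genes came to 2.31 to 2.36 times the library total. Whether a read counts more than once within a gene or at more than 1 gene was not tested. Whether the totals count reads or pairs is not stated. Depth limits low values: 3 reads on 1 kilobase were worth 0.0769 to 0.126 RPKM.

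Ages were compared with limma 3.58.1 (R 4.3.3, eBayes with a mean-variance trend) on log2(RPKM + 0.1) for genes with RPKM of at least 0.1 in 3 libraries, with Benjamini-Hochberg adjustment over all genes tested. The procedure was tested on simulated counts with the same spread set for every gene. Its error at the spread of the pigment genes was not tested. Exon values, promoter matches and likeness of profile are descriptions without a test. Exon structures came from an mm10 annotation, and Python 3.11.15 with pandas 2.3.3 and matplotlib 3.10.9 served for tables and figures. The alternatives were pseudocounts of 1 and 0.01, no filter, RPKM of at least 1, no trend, an unequal-variance test of each gene as in the study, median scaling, quantile normalization, a replicate block, voom on the recovered reads, and leaving out each library. Same-numbered libraries of the ages come from different animals.

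The 10 genes and the gene lists (melanosome, transcription factor, signal, mast cell, Schwann cell, endothelial, macrophage, keratinocyte, cardiomyocyte, adipocyte and valve interstitial) were chosen with earlier results of these data known. Named are all 10 genes, every called gene of the pigment lists with others given by their values, the 3 most abundant genes of each other list and any of its genes at 0, and the 5 genes of most similar profile. Asip was not analysed here, and 1 of the abundant Schwann cell genes is not reported here.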

Additional observations from a re-analysis of the deposited data

How the results depend on the processing

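Of the 10 melanocyte genes, 5 were called, all lower at 4 months. The same fit called 60 other list genes and 9273 of all 25903 genes tested (35.8%, with 21.1% lower and 14.7% higher). An unequal-variance test of each gene called 0 of the 10 genes (4 had an unadjusted p under 0.05, against 6 with limma), 25 list genes and 3408 genes in all, and the cause was not tested. Leaving out a library gave 2 to 5 of the 10 genes, the fewest without replicate 3 of PND2, where Pmel and Tyrp1 remained. With a pseudocount of 1, no filter, RPKM of at least 1, no trend, median scaling or quantile normalization 4 were called, and with a pseudocount of 0.01 or voom 5 were. Mitf was the gene lost in these settings except with RPKM of at least 1, where Slc45a2 and Edn3 were not tested. Median scaling moved the median over all genes from -0.14 to -0.02 on the log2 scale and the share of higher calls from 41.1 to 52.7%, and Mitf then had -0.34 with a limma adjusted p of 0.148. Mlana had log2 fold changes of -0.48 to 0.17 in the fits without a library, positive without replicate 3 of PND2 (0.10) and without replicate 3 of 4 months. The log2 difference of the ratio of Tyrp1 to Slc45a2, 0.18 with all libraries, was -0.062 to 0.30, negative without replicate 3 of 4 months. That set of ratios was added after the data were seen. Of the 5 genes of most similar profile, 3 stayed with a pseudocount of 1 and 0 to 2 without a library. Low read numbers limit the values of Edn3, Slc45a2 and the first exons of Mitf.

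The replicate numbers do not pair the libraries: deviations from the age means correlated by 0.0439, -0.0608 and -0.160 between libraries of the same number. With the replicate number as a block, 3 of the 10 genes were called (Tyrp1, Pmel and Kit), 55 other list genes and 7167 genes in all. No library correlated best with the library of its own number at the other age.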
